A study of Mus musculus with 17 samples.

Results

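The sterol synthesis and SREBP genes are 30 mouse genes, chosen by name for their place in lipid synthesis: 18 enzymes of cholesterol synthesis, 6 genes of SREBP control and sterol transport, and 6 enzymes of fatty acid synthesis. They were matched by exact symbol among the 35147 genes listed over 4 tables. All 30 were found in the knockout-experiment table (19782 genes) and in the table of the CXCR4 sort (17130 genes). Of the 30, 29 were found in the culture table (18818 genes), where Mvk was not analysed. In the table of P4 basal cells (26584 genes) 29 were found. Msmo1 stood there only under its older symbol Sc4mol, at 11.3 FPKM in the P4 Cxcl12 knockout and 19.9 FPKM in the P4 control, and was not counted.

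SREBP proteins are transcription factors that are made as precursors bound to the membrane of the endoplasmic reticulum. SCAP escorts them to the Golgi for cleavage when membrane sterol is low, and the INSIG proteins hold SCAP back when sterol is plentiful. SREBP-2, from Srebf2, drives mainly cholesterol synthesis, and SREBP-1, from Srebf1, mainly fatty acid synthesis. AKT and mTORC1 signalling are known to raise SREBP activity, and in macrophages cholesterol synthesis is set against efflux, which the LXR receptors control.

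The study took mammary gland cells of virgin mice and asked about CXCL12, a chemokine, and its receptor CXCR4 in macrophages. Macrophages, sorted on surface markers with CD11b among them, came from LysM-Cre Cxcr4 knockouts (LysmCre+, Cxcr4fl/fl) and LysM-Cre controls (LysmCre+), and from K8-Cre Cxcl12 knockouts (K8Cre+, Cxcl12fl/fl) and K8-Cre controls (K8Cre+), with 2 libraries in each group. LysM-Cre recombines in myeloid cells and sits in the Lyz2 gene, and K8-Cre recombines in luminal epithelial cells, so the Cxcl12 deletion lies outside the macrophages. Wild-type macrophages were further sorted into CXCR4-positive (2 libraries) and CXCR4-negative (1 library) cells. Wild-type macrophages were also cultured in RPMI with serum, 1 library each, with recombinant CXCL12 together with the AKT inhibitor GSK690693, with the inhibitor alone, with CXCL12 alone, or untreated. Doses and times are not given in the sources used here. The P4 cells, sorted as Lin-CD24+CD29high and enriched for mammary stem cells, came from 1 K8-Cre Cxcl12 knockout library and 1 K8-Cre control library. Whether the libraries within each group stem from different animals is not stated, so the spread between libraries that underlies a p may be technical. The fit took a gene's spread mostly (knockouts) or wholly (sort) from genes of like level.

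Promoter sequences are shown first for 4 members that the results below turn on. Hmgcs1 makes HMG-CoA, an early step of the mevalonate pathway, and its window was the only one among the members with a sterol regulatory element of the form searched. Insig1 passed the test in the CXCR4 sort. Cyp51 (lanosterol demethylase) and Hsd17b7 (a sterol ketone reductase) were lower in both inhibitor pairs of the culture. The windows run from 250 bases before to 50 bases after the transcript start, are from RefSeq on build GRCm38.p6 and are written on the gene's own strand: chr13:119690101-119690400 (plus strand) for Hmgcs1, chr5:28071162-28071461 (plus) for Insig1, chr5:4104648-4104947 (minus) for Cyp51 and chr1:169969156-169969455 (minus) for Hsd17b7. Capitals mark matches of TCACNCCAC (the element SREBPs bind) and CCAAT (the NF-Y motif), searched on both strands, so that ATTGG is CCAAT on the other strand.
Hmgcs1: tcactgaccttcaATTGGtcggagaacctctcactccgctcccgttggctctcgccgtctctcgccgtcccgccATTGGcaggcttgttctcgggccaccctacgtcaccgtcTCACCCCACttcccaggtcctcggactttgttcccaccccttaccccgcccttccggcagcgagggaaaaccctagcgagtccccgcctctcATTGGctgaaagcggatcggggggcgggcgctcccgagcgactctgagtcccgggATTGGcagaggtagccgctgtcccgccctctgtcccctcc
Insig1: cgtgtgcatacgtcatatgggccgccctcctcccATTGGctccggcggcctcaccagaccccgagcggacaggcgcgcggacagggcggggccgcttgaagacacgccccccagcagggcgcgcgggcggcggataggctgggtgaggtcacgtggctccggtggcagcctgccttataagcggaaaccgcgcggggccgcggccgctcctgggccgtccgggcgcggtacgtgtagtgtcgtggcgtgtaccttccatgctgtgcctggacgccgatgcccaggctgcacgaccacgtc
Cyp51: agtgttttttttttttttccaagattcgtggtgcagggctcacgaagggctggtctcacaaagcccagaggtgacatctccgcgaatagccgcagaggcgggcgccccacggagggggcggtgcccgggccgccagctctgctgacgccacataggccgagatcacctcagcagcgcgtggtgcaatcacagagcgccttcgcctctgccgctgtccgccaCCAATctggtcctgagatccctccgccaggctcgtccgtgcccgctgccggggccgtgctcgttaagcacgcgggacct
Hsd17b7: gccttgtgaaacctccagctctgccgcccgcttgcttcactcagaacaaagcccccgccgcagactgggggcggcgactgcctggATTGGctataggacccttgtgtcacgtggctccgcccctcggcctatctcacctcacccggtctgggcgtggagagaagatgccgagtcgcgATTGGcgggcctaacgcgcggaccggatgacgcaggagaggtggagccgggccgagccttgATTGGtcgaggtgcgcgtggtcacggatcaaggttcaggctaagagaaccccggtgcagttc

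The element of Hmgcs1 starts 137 bases before the transcript start and lies among 4 CCAAT matches. Of the 30 members, 24 had a window in RefSeq's table. TCACNCCAC was present in 1 of these 24, against 1.44% of the 27025 genes with a window, and CCAAT in 20 of the 24, against 41.1%. A match is a description of letters and not evidence of binding, and a window without one says nothing about the factor.

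The macrophage libraries held 8.60 to 37.2 M reads, so that 3 reads corresponded to 0.0806 to 0.349 CPM, the unit that scales reads to library depth. No depth is known for the P4 libraries. In the knockout experiments the share of listed genes at 0 ran from 7.88% to 36.7%, highest in K8-Cre control 1 and LysM-Cre control 1 (30.1%). The share of small noncoding RNA was 2.96% to 6.74% in libraries of repeat 1, and 15.2% to 19.3% in those of repeat 2. Cxcr4 itself stood at 232 and 140 CPM in the Cxcr4 knockouts against 819 and 318 CPM in LysM-Cre controls (log2 change -1.49, SE 0.49, adjusted p = 1, limma). Cxcr4 RNA did not separate the CXCR4-positive libraries (632 and 875 CPM) from the library labelled CXCR4-negative (772 CPM). The macrophage markers Adgre1, Csf1r and Itgam were each at 148 CPM or more in all 15 macrophage libraries. Another macrophage marker, Fcgr1, was at 0 in LysM-Cre control 1, the untreated culture and the culture with CXCL12 and inhibitor. The basal keratin Krt5 stood at 456 FPKM in the P4 knockout and 436 FPKM in the P4 control. In culture, 9 endothelial markers summed to between 2047 and 2724 CPM, against 58.1 to 242 CPM in the 11 freshly sorted macrophage libraries. The 19 macrophage markers found in culture summed to 7077 to 10803 CPM, or 2136 to 2769 CPM without Lyz2. Without Lyz2 the freshly sorted libraries had 2894 to 13449 CPM. The 8 basal epithelial markers found in culture summed to 583 to 611 CPM, against 51.2 to 353 CPM in the freshly sorted libraries. The part of such cells in the culture values was not tested.

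The module was well expressed in part. Compared per kilobase of exon, the highest medians over the 8 knockout-experiment libraries were those of Idi1 (34.6 CPM per kb), which makes dimethylallyl diphosphate, Insig1 (31.2), Srebf2 (24.5), Acly (23.2), the enzyme that supplies cytosolic acetyl-CoA, and Hmgcs1 (18.9). The ranges of neighbours in this order overlapped, for example 12.2 to 54.0 CPM per kb for Idi1 and 22.5 to 88.4 for Insig1. In the sort Insig1 (51.9 CPM per kb), Acly (28.8) and Srebf2 (18.1) led. In culture the order began with Scd1 (35.5 CPM per kb), the stearoyl-CoA desaturase, Acly (34.7), Insig1 (30.5) and Hmgcs1 (25.8). The lowest median was that of Tm7sf2, a sterol reductase, in the knockout experiments (0.32 CPM per kb) and in the sort (0.21), and that of Pmvk in culture (0).

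The paired regulators stood in the same order in the macrophage libraries, in culture with a near tie of Srebf2 and Srebf1. Per exon length, Insig1 exceeded Insig2 in 15 of 15 macrophage libraries, by ratios of 2.16 to 734, the highest in a library with Insig2 at 0.238 CPM. In the P4 cells Insig1 was below Insig2 in both libraries, with 14.8 against 24.9 FPKM in the P4 knockout and 16.1 against 38.1 FPKM in the P4 control. Srebf2 exceeded Srebf1 in 15 of 15 macrophage libraries, by ratios of 1.01 to 22.7, and in both P4 libraries. The ratio of 1.01 was a culture value, and whether the exon lengths used apply to the culture table is not known. Ratios are within a library, but CPM and FPKM come from tables made separately and the difference between macrophages and P4 cells was not tested.

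**Figure D1:**
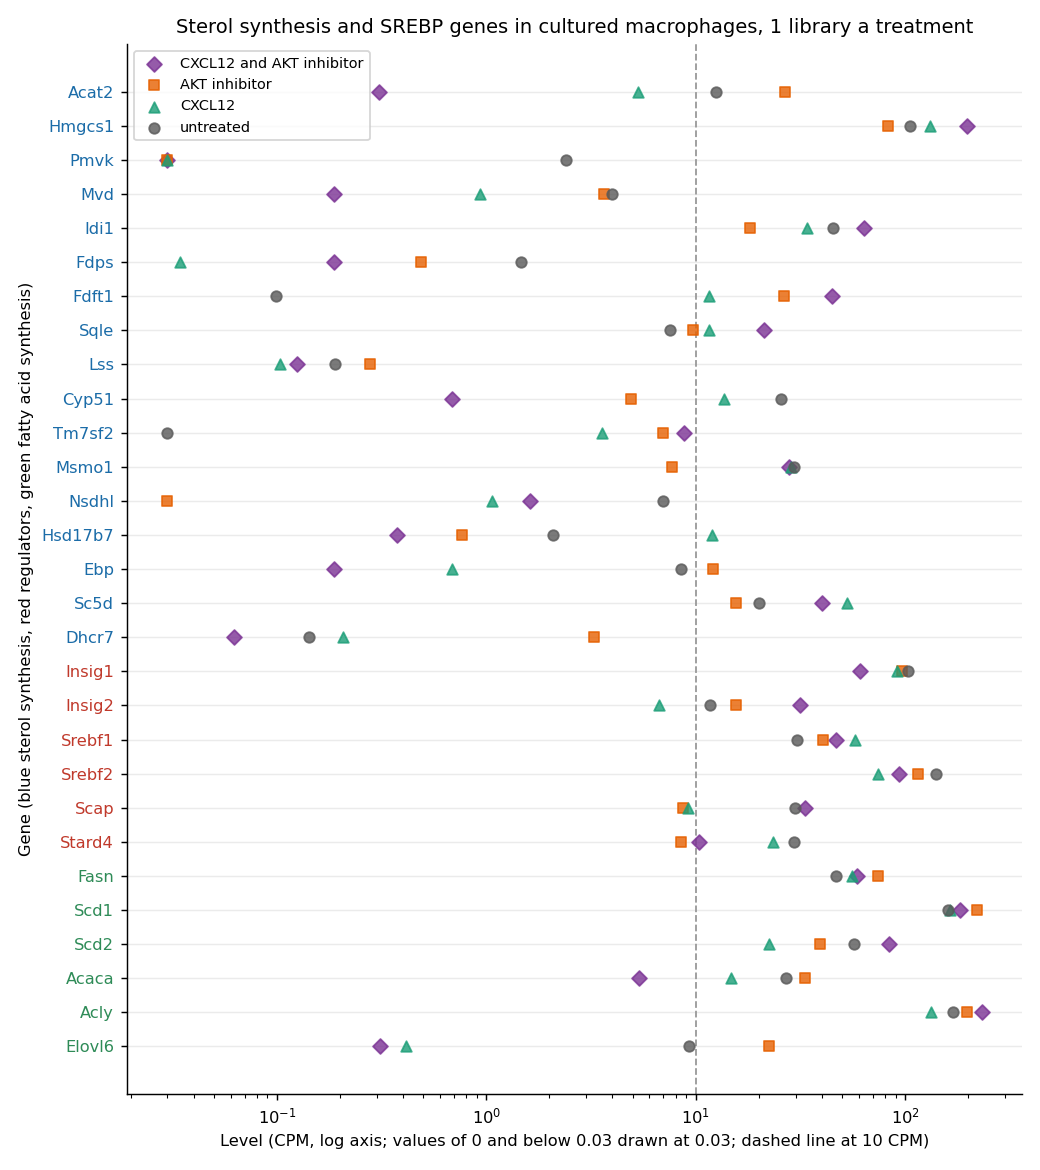
Levels of the 29 members found in the culture table, 1 point a library on a log axis in CPM, with the dashed line at the 10 CPM needed for a comparison. Acly, Scd1, Hmgcs1, Insig1 and Srebf2 stood at 60.8 CPM or more in all 4 libraries, while 7 members stayed under 10 CPM in each.

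The culture compared the AKT inhibitor with no inhibitor in 2 pairs that share no library: inhibitor over untreated, and CXCL12 with inhibitor over CXCL12. The sterol enzymes Cyp51 and Hsd17b7 and the sterol carrier Stard4 were at least 2-fold lower in both pairs, and the squalene synthase Fdft1 was at least 2-fold higher in both. Of 22 members with 10 CPM or more in the highest library, 3 were thus lower and 1 higher. Among all 11671 such genes 7.99% were lower and 5.9% higher. The member median was a log2 ratio of 0.07 in the pair without CXCL12 and 0.03 in the pair with it, against 0.03 and -0.06 for all genes. Of the 22 members, 11 were above 0 in each pair, against 51.0% of all genes in the pair without CXCL12 and 47.4% in the pair with it. In the pair without CXCL12, 6 members were at least 2-fold lower (18.6% of all genes) and 3 higher (20.4%), and in the pair with it 6 were lower (29.8%) and 4 higher (21.3%). With 1 library a treatment there is no replicate check and no test, and the intervals given here cover counting error only.

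Cyp51 stood at 4.89 CPM with the inhibitor against 25.6 CPM untreated, and at 0.69 CPM with CXCL12 and inhibitor against 13.6 CPM with CXCL12. The ratios were 0.191 (95% interval 0.147 to 0.245) and 0.0504 (0.025 to 0.0912). Both inhibitor libraries were below both libraries without it. Cyp51 reached 10 CPM only in the libraries without the inhibitor, so that it could enter the comparison only by being high there. Cyp51 overlaps Akap9 on the other strand, and whether the counting used strand is not given in the sources used here.

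Stard4, a carrier of cholesterol between membranes, had 8.52 CPM with the inhibitor against 29.6 CPM untreated, and 10.4 CPM with both agents against 23.3 CPM with CXCL12. The ratios were 0.288 (0.235 to 0.35) and 0.444 (0.372 to 0.527). Here too the inhibitor libraries were the lowest.

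Hsd17b7 had 0.77 CPM with the inhibitor against 2.08 CPM untreated, and 0.37 CPM with both agents against 11.9 CPM with CXCL12. It exceeded 10 CPM only in the CXCL12 library, so that it could enter the comparison only by being high there. Its low values rest on 11 and 6 reads, and with a prior of 1 CPM the log2 ratio of the pair without CXCL12 was -0.80 in place of -1.32.

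Fdft1 had 26.2 CPM with the inhibitor against 0.0993 CPM untreated, and 45.0 CPM with both agents against 11.6 CPM with CXCL12. The untreated value is 2.1 reads, and the ratio of the pair without CXCL12 was 264 with an interval of 74.6 to 2032. That of the other pair was 3.88 (3.4 to 4.43). The untreated library was the lowest by far, and the CXCL12 library lay below both inhibitor libraries. Fdft1 (chromosome 14, 63145150 to 63179578 of GRCm38, minus strand) overlaps Ctsb on the other strand.

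The 6 genes of SREBP control and sterol transport gave no common direction with the inhibitor. Of these, 2 were above 0 in the pair without CXCL12 (51.0% of all genes) and 3 in the pair with it (47.4%). Srebf1 had 40.4 CPM with the inhibitor against 30.4 CPM untreated, and 46.7 CPM with both agents against 57.4 CPM with CXCL12. Srebf2 had 115 against 141 CPM in the pair without CXCL12, and 93.0 against 74.2 CPM in the pair with it. For both genes the 2 ratios lay on opposite sides of 1, at most 1.33-fold away from it. Insig1 stood at 96.9 CPM with the inhibitor against 103 CPM untreated, and at 60.8 CPM with both agents against 91.7 CPM with CXCL12. Insig2 was higher in both pairs, with 15.6 CPM against 11.7 CPM untreated, and 31.6 CPM with both agents against 6.65 CPM with CXCL12. Scap had 8.73 against 29.7 CPM without CXCL12 and 33.2 against 9.22 CPM with it. The inhibitor library and the CXCL12 library were the low pair for Scap, and the untreated library and the one with both agents the high pair. Scap and Acat2 were thus at least 2-fold changed in opposite directions in the 2 pairs, as were 12.8% of all genes.

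Of the enzymes, Hmgcs1 had 82.3 CPM with the inhibitor against 105 CPM untreated, and 198 CPM with both agents against 132 CPM with CXCL12. Squalene epoxidase, Sqle, had 9.70 against 7.52 CPM and 21.3 against 11.5 CPM, the same direction in both pairs but under 2-fold. Fatty acid synthase, Fasn, had 74.4 against 46.7 CPM and 59.1 against 55.5 CPM. These 3 did not reach 2-fold in either pair.

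The desaturase Scd1 had 219 CPM with the inhibitor against 160 CPM untreated, and 184 CPM with both agents against 163 CPM with CXCL12. Scd2 had 39.3 against 57.1 CPM and 83.5 against 22.4 CPM. Acly, below 2-fold in both pairs, had 197 against 169 CPM and 232 against 133 CPM. Of 6 fatty acid genes 5 were above 0 in the pair without CXCL12 (51.0% of all genes) and 4 in the pair with it (47.4%). None of them was 2-fold in both.

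**Figure D2:**
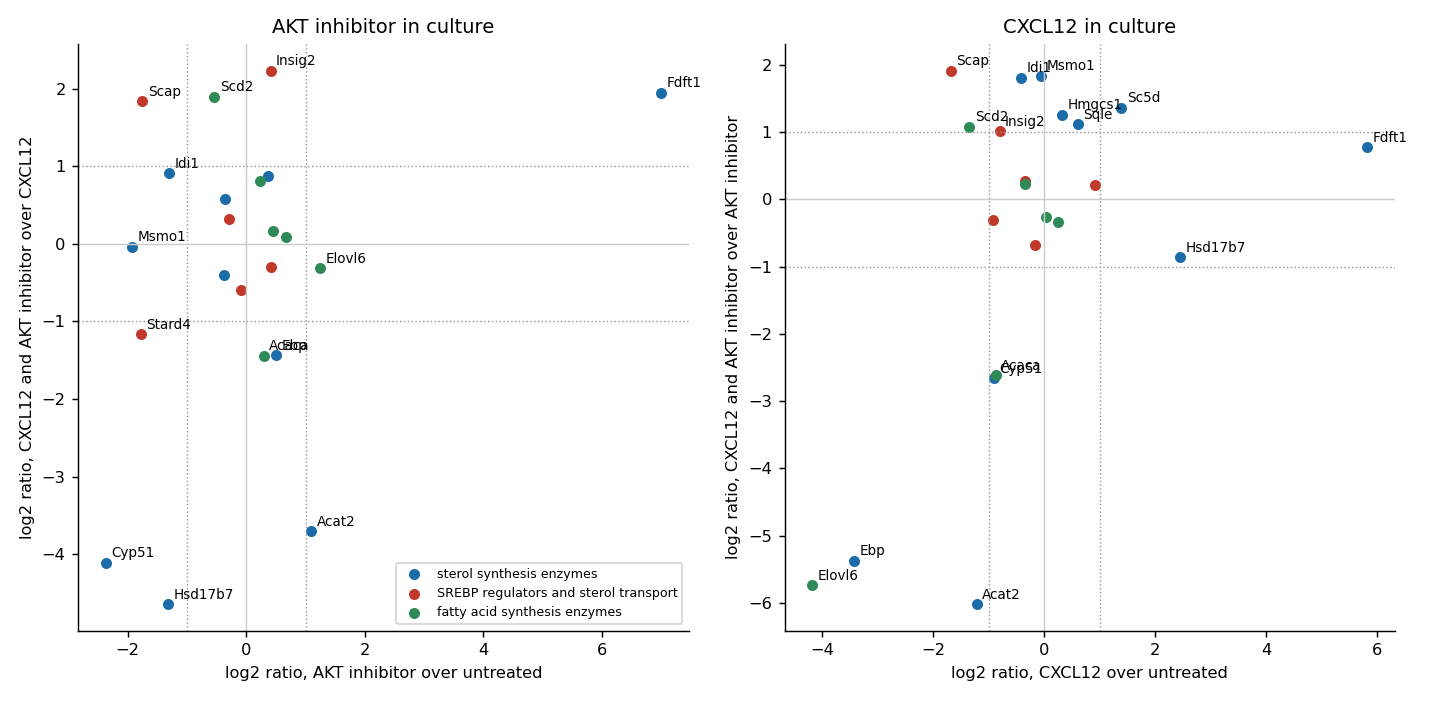
Log2 ratios of the 22 members that reached 10 CPM, 1 point a gene, with the pair without the other agent on the x axis and the pair with it on the y axis, for the AKT inhibitor (left) and for CXCL12 (right). Dotted lines mark 2-fold; Cyp51, Hsd17b7 and Stard4 lie in the lower left corner of the left panel and Fdft1 in the upper right.

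Other lists showed little that repeated. Of 15 genes of SREBP processing, none was 2-fold in both inhibitor pairs. Of 17 other SREBP-linked lipid genes 1 was higher, Gpam (log2 ratios 1.35 and 4.27), which starts glycerolipid synthesis. Of 20 genes of LXR signalling and cholesterol efflux 1 was higher, Abca7 (2.43 and 1.12). Of 24 genes of AKT, mTORC1 and FOXO feedback 2 were lower, Rps6kb1 (-1.73 and -1.30), the S6 kinase, and Foxo4 (-1.32 and -1.44). The sum over 14 adipocyte markers was 619 CPM with the inhibitor against 554 CPM untreated, and 653 CPM with both agents against 478 CPM with CXCL12, of which Fabp4 took 314 to 407 CPM per library. Adipoq, specific to adipocytes, had 0.559 CPM with the inhibitor against 4.02 CPM untreated, and 30.5 CPM with both agents against 2.24 CPM with CXCL12. Retn was at 0 in 3 libraries, all but the one with the inhibitor alone. The part of these cells in the result was not tested, and in bulk RNA fewer cells of a type and less RNA per cell cannot be told apart.

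The same 4 libraries give 2 pairs for CXCL12: CXCL12 over untreated, and CXCL12 with inhibitor over inhibitor. They share their libraries with the inhibitor pairs, so the comparisons are given side by side and are not independent. Acat2 (acetoacetyl-CoA thiolase), Ebp (sterol isomerase) and Elovl6 (fatty acid elongase) were at least 2-fold lower in both pairs, and Sc5d (lathosterol desaturase) at least 2-fold higher. Among all 11671 genes, 6.73% were lower and 4.48% higher in both. The member median was -0.34 in the pair without inhibitor and 0.22 in the pair with it, against -0.01 and -0.11 for all genes. In the pair without inhibitor 5 members were 2-fold lower (16.0% of all genes) and 3 higher (14.8%), and in the pair with it 5 were lower (30.8%) and 8 higher (20.2%). Scap and Scd2 were 2-fold changed in opposite directions, as were 10.3% of all genes.

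Sc5d had 52.8 CPM with CXCL12 against 20.1 CPM untreated, and 40.0 CPM with both agents against 15.5 CPM with the inhibitor, ratios of 2.63 (95% interval 2.36 to 2.94) and 2.58 (2.21 to 3.02). Both CXCL12 libraries were above both libraries without it, by nearly the same ratio. Acat2 had 5.30 CPM against 12.5 CPM and 0.308 CPM against 26.8 CPM. It reached 10 CPM only in the libraries without CXCL12, so that it could enter the comparison only by being high there.

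Ebp had 0.689 CPM against 8.47 CPM and 0.187 CPM against 12.1 CPM in these pairs, the lowest value being 3 reads, so that the ratio of the pair with inhibitor was 0.0155 with an interval of 0.00316 to 0.046. Elovl6 had 0.413 CPM against 9.32 CPM and 0.312 CPM against 22.3 CPM. For these 2 genes, as for Acat2, the CXCL12 libraries were the low ones. Ebp and Elovl6 reached 10 CPM only in the inhibitor library. Acss2, another SREBP-linked gene that makes acetyl-CoA from acetate, was the 1 of 17 higher in both pairs (4.13 and 5.74), and none was lower. Of 24 AKT, mTORC1 and FOXO genes 1 was higher, Bcl6 (1.55 and 1.03), and of 15 processing genes and 20 LXR-linked genes 0 were 2-fold in both.

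The sort set macrophages labelled CXCR4-positive against 1 library labelled CXCR4-negative. Insig1 was higher and Scd2 lower in the libraries labelled CXCR4-positive, calls that rest on that 1 library and on the filter and trend of the fit. Insig1 had 160 and 250 CPM in CXCR4-positive libraries against 77.5 CPM in the library labelled CXCR4-negative. Both positive libraries were above the negative one by at least 2-fold. The log2 difference was 1.36 (SE 0.36, 95% interval 0.66 to 2.06, adjusted p = 0.00299, limma with Benjamini-Hochberg adjustment over 14411 genes).

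Scd2, a desaturase on chromosome 19 (44293674 to 44306864 of GRCm38, plus strand), had 22.7 and 35.2 CPM in CXCR4-positive libraries against 91.8 CPM in the library labelled CXCR4-negative. Its log2 difference was -1.66 (SE 0.47, 95% interval -2.59 to -0.74, adjusted p = 0.0078, limma). The neighbouring desaturase Scd1 had 31.3 and 52.1 CPM against 45.0 CPM, and its groups overlapped. Of 29 members tested, 2 passed, 1 higher and 1 lower, while 8.46% of all genes passed, 5.06% higher and 3.4% lower. In numbers, 729 genes were higher and 490 lower, or 855 and 358 with median-ratio scaling, under which the median of all genes was -0.06 in place of -0.20 and both members still passed. Both calls ended without the filter on low values (adjusted p = 0.331 for Insig1 and 0.306 for Scd2) and without the mean-variance trend (0.392 and 0.348). The negative group is 1 library, assumed to vary like the positive pair, and the spread came wholly from genes of like level.

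The other regulators and enzymes did not pass. Srebf2 had 130 and 70.9 CPM against 165 CPM (-0.77, SE 0.37), Srebf1 48.7 and 47.6 CPM against 43.0 CPM (0.16, SE 0.46) and Scap 36.2 and 43.6 CPM against 29.8 CPM (0.41, SE 0.50). Fasn had 34.2 and 41.1 CPM in the positive libraries against 84.5 CPM in the negative one, with a log2 difference of -1.15 (SE 0.45, adjusted p = 0.0961, limma). Hmgcs1 had 40.5 and 33.1 CPM against 36.4 CPM (0.01, 95% interval -0.96 to 0.98), and Sqle 13.1 and 21.8 CPM against 11.6 CPM (0.50, SE 0.70). Both positive libraries lay above the negative one for Srebf1, Scap and Sqle and below it for Srebf2 and Fasn.

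An unadjusted p under 0.05 was reached by 8 of 29 members against 19.0% of all genes: Insig1, Scd2, Fasn, Srebf2, Stard4 (-1.75, SE 0.68), Dhcr7 (1.51, SE 0.67), which makes cholesterol in the last step, Cyp51 (-1.22, SE 0.57) and Elovl6 (2.00, SE 0.96). Both positive libraries were above the negative one in 11 members (32.1% of all genes) and below it in 11 (44.6%). Of 17 sterol enzymes tested 9 had a difference above 0, and of 6 fatty acid genes 1 did, against 41.3% of all genes. The member median was -0.13, against -0.20 for all genes.

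**Figure D3:**
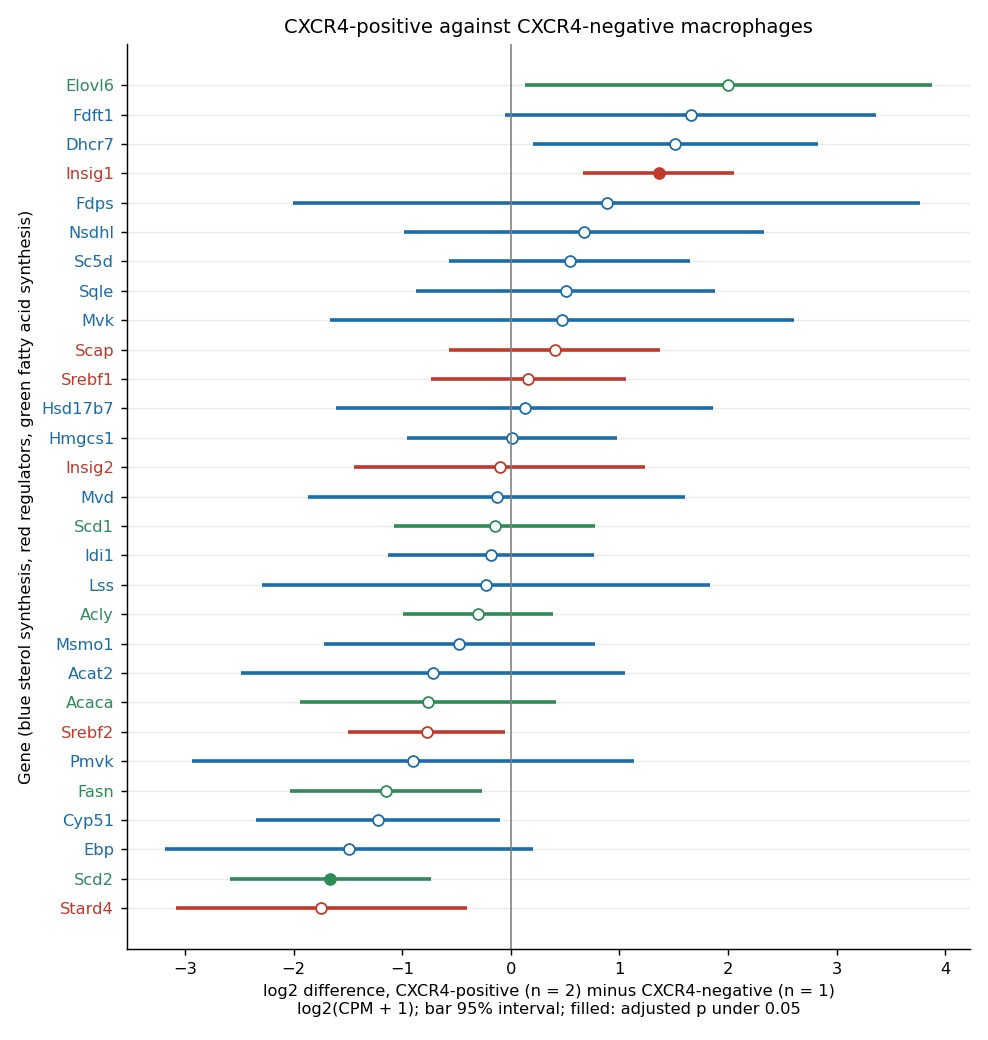
Log2 differences on the log2(CPM + 1) scale, CXCR4-positive minus CXCR4-negative, for the 29 members tested, with 95% intervals. Filled points passed at an adjusted p under 0.05: Insig1 at 1.36 and Scd2 at -1.66.

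The other lists were tested in the same fit, against the same single library, and no gene passed there without the filter on low values or without the trend. Of 20 LXR-linked genes tested 9 were higher, led by Apoe (log2 difference 4.59), the lipid-carrying apolipoprotein, and Mertk (4.02), and 2 were lower, Tgm2 (-2.10) and Abca7 (-1.81), at an adjusted p under 0.05 with limma. Of 20 other SREBP-linked genes 2 were higher, Tmem97 (3.08), a sterol-binding protein, and Fads1 (1.73), a desaturase. Of 15 processing genes 1 was higher, Lpin1 (1.30). Mertk is also a macrophage marker. The 20 macrophage markers summed to 17686 and 20816 CPM in the libraries labelled CXCR4-positive against 8405 CPM in the library labelled CXCR4-negative, with 13 higher and none at 0. The 10 dendritic cell markers summed to 793 and 723 CPM against 1777 CPM, with 5 lower, 2 higher and none at 0. The 8 adipocyte markers found summed to 227 and 195 CPM against 152 CPM, with Cidec at 0 in the first positive library and in the negative one. The part of these cell types in the Insig1 and Scd2 differences was not tested.

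Loss of Cxcr4 in myeloid cells gave no member that passed. Sqle and Scd2 were the 2 members with an unadjusted p under 0.05, and both were lowest in the first Cxcr4 knockout library. Sqle had 0.83 and 10.04 CPM in the Cxcr4 knockouts against 104 and 17.9 CPM in LysM-Cre controls, and its groups did not overlap. The log2 change, -3.31, had an SE of 1.48 and an interval of -6.25 to -0.37 (95%; adjusted p = 1, limma), with -5.84 within repeat 1 and -0.78 within repeat 2.

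Scd2 had 1.55 and 56.7 CPM in the Cxcr4 knockouts against 52.4 and 47.8 CPM in the controls. The first knockout library was low and the second above both controls, so the log2 change of -2.07 (SE 0.98, adjusted p = 1, limma) was 0.18 without that first library. Srebf1 had 4.45 and 46.6 CPM against 81.6 and 22.1 CPM, with changes of -3.92 in repeat 1 and 1.04 in repeat 2. The groups overlapped.

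Srebf2 had 129 and 201 CPM in the knockouts against 230 and 171 CPM in the controls, Insig1 155 and 94.7 CPM against 273 and 86.5 CPM. Scap had 30.7 and 29.2 CPM against 75.3 and 41.2 CPM (log2 change -0.87, 95% interval -2.52 to 0.78), and did not overlap. Hmgcs1 had 50.6 and 116 CPM against 45.2 and 114 CPM, with the repeats far apart in both groups and nearly equal between them. Fasn had 114 and 56.2 CPM against 171 and 39.3 CPM, and Scd1 66.5 and 94.9 CPM against 78.6 and 130 CPM. For Srebf2, Insig1, Hmgcs1, Fasn and Scd1 the groups overlapped.

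Lyz2, the gene that holds the Cre insertion, stood at 67.4 and 51.7 CPM against 10226 and 2780 CPM in the controls. Both groups are labelled LysmCre+, and the label does not give the number of Cre copies. Why Lyz2 differed was not tested, and what goes with it cannot be told apart from loss of Cxcr4 here. Of 17275 genes Lyz2 was the 1 that passed in this contrast (0.00579%). Without LysM-Cre control 2 the number was 150 genes, without LysM-Cre control 1 it was 17, and without the second Cxcr4 knockout library 19, with no member among them. An unadjusted p under 0.05 was reached by 2 of 30 members against 3.33% of all genes. Both knockout libraries lay above both controls in 4 members, Mvd, Lss, Hsd17b7 and Elovl6 (16.7% of all genes), and below both in 4, Sqle, Sc5d, Insig2 and Scap (8.78%). The member median was -0.03, against 0.14 for all genes, and ran from -0.55 to 0.36 when 1 library was left out at a time. It was -0.55 without the second Cxcr4 knockout library and 0.36 without the first.

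Libraries of 1 group often differed as much. Among members of at least 10 CPM, 15 of 24 were 2-fold or more apart between the Cxcr4 knockout libraries (52.4% of all genes), 12 of 21 between LysM-Cre controls (60.7%), 6 of 27 between Cxcl12 knockouts (29.5%) and 12 of 23 between K8-Cre controls (59.0%).

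Loss of Cxcl12 in luminal cells likewise gave no member that passed, and none of the 17275 genes did (0.0%) with limma, against 151 without K8-Cre control 2, 7 without the second Cxcl12 knockout library and 7 with voom weights. An unadjusted p under 0.05 was reached by 0 of 30 members and 2.84% of all genes. The member median was 0.57, against 0.36 for all genes, and 0.25 without K8-Cre control 1. Both knockout libraries lay above both controls in 8 members: Mvk, Idi1, Sqle, Lss, Hsd17b7, Sc5d, Scd2 and Elovl6 (20.4% of all genes). They lay below both in 2, Ebp and Fasn (8.05%).

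Sqle had 14.8 and 21.4 CPM in the Cxcl12 knockouts against 6.74 and 6.90 CPM in K8-Cre controls, a log2 change of 1.26 (SE 1.48, 95% interval -1.68 to 4.20, adjusted p = 1, limma). Scd2 had 71.5 and 59.8 CPM against 43.0 and 39.9 CPM (0.65, SE 0.98). Fasn had 59.1 and 52.5 CPM against 72.2 and 68.1 CPM (-0.33, SE 0.74). In these 3 genes the libraries of a group lay close and the groups did not overlap, but each difference was smaller than its SE. The fit drew that SE mostly from genes of like level (97.3 prior degrees of freedom beside 4 residual).

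The regulators overlapped between groups. Srebf1 had 41.8 and 49.4 CPM in the Cxcl12 knockouts against 25.9 and 55.5 CPM in the controls, and Srebf2 181 and 165 CPM against 281 and 165 CPM. Insig1 had 115 and 85.0 CPM against 69.6 and 98.2 CPM, and Scap 61.3 and 33.1 CPM against 97.9 and 48.7 CPM. Hmgcs1 had 116 and 59.7 CPM against 126 and 58.5 CPM, and Scd1 85.1 and 41.2 CPM against 72.3 and 55.1 CPM. For Scap, each knockout was below the control of the same repeat number, with log2 changes of -0.67 and -0.55.

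The change with Cxcr4 loss minus that with Cxcl12 loss was tested directly, and no member passed. It was -4.57 for Sqle (SE 2.10, adjusted p = 1, limma) and -1.95 for Idi1 (SE 0.94, adjusted p = 1), the 2 members with an unadjusted p under 0.05, against 2.48% of all genes. Only Lyz2 passed (0.00579% of genes). No gene of the 4 pathway lists passed in either knockout: 0 of 15 processing genes, 0 of 20 other SREBP-linked genes, 0 of 21 LXR-linked genes and 0 of 24 AKT and mTORC1 genes. The 20 macrophage markers summed to 8371 and 5386 CPM in the Cxcr4 knockouts against 17140 and 7567 CPM in LysM-Cre controls, and to 8342 and 11457 CPM in the Cxcl12 knockouts against 12759 and 13124 CPM in K8-Cre controls, where Fcgr1 was at 0 in LysM-Cre control 1. Lyz2 is in that list, and without it the order of the Cxcr4 sums turned within each repeat, with groups that overlap: the other 19 markers summed to 8304 and 5335 CPM in the Cxcr4 knockouts against 6914 and 4787 CPM in LysM-Cre controls, with 16 of all 20 above 0 (median log2 change 0.21). The part of cell makeup in the member changes was not tested.

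**Figure D4:**
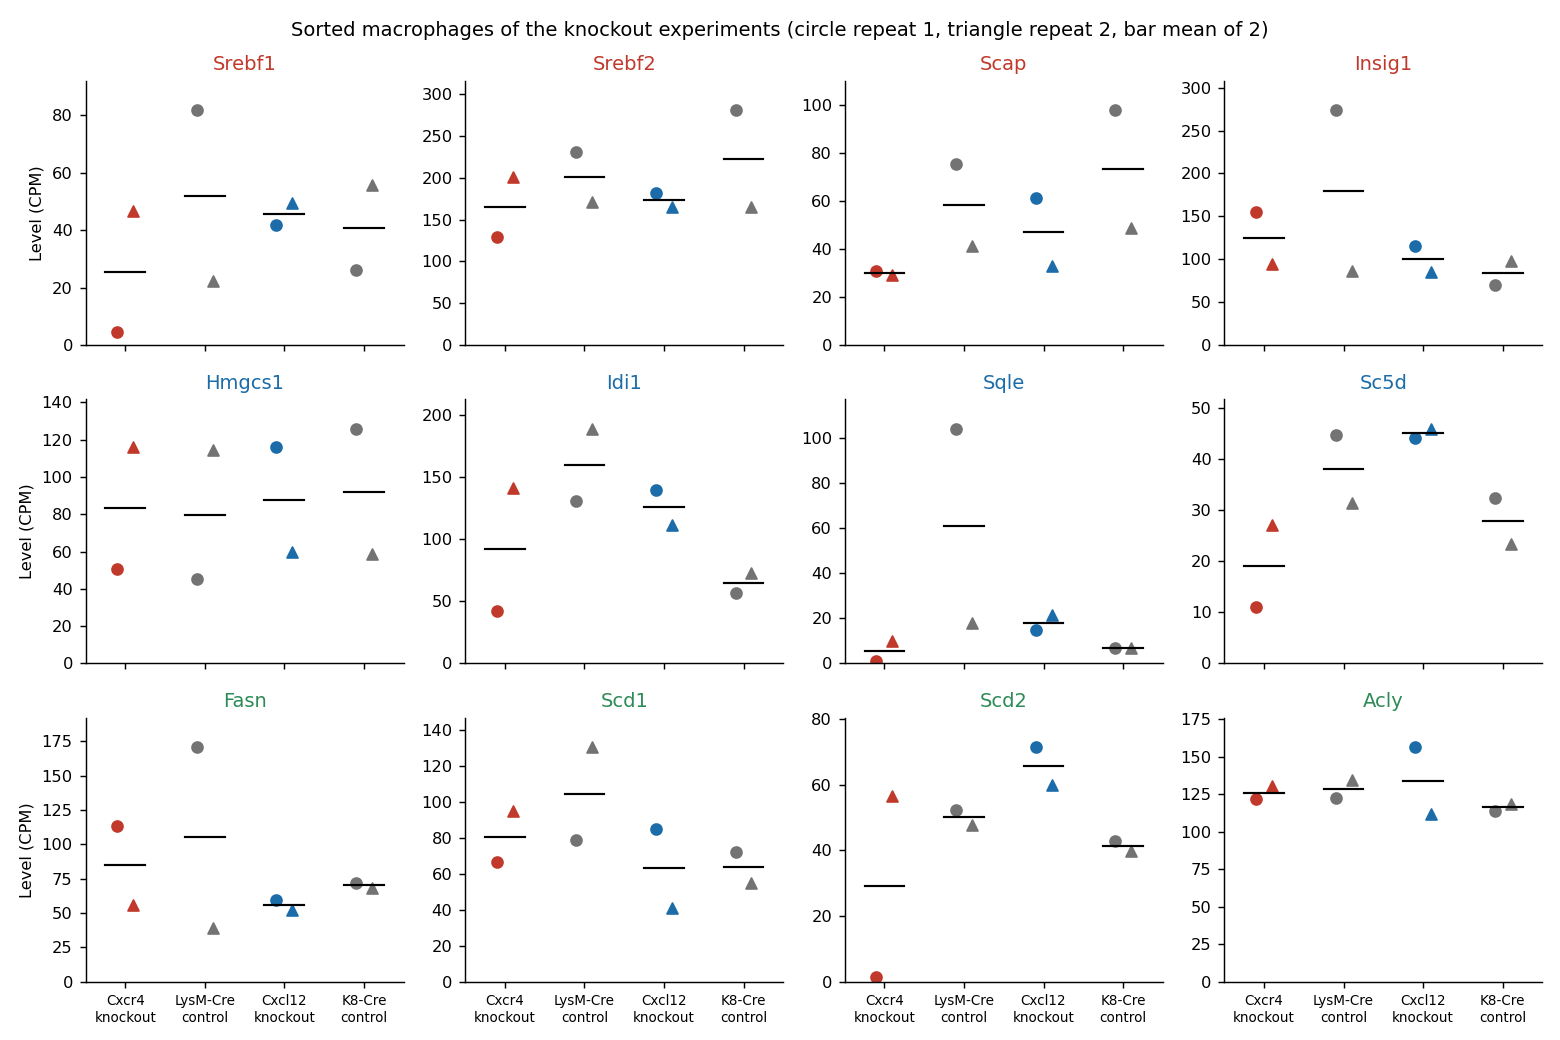
Levels in CPM of 12 members in the 8 macrophage libraries of the knockout experiments, with each knockout left of its own control; circles are repeat 1, triangles repeat 2 and bars the mean of 2. Sqle stands at 0.83 and 10.04 CPM in Cxcr4 knockouts and at 14.8 and 21.4 CPM in Cxcl12 knockouts, while Acly lies between 112 and 156 CPM throughout.

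Acly, in the plot of member levels by knockout, was the steadiest of the members shown: 122 and 130 CPM in Cxcr4 knockouts against 123 and 135 CPM in LysM-Cre controls, and 156 and 112 CPM in Cxcl12 knockouts against 114 and 119 CPM in K8-Cre controls. Its log2 changes were -0.03 (95% interval -1.24 to 1.18) and 0.18 (-1.03 to 1.39).

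The P4 cells gave 1 library from a Cxcl12 knockout and 1 from a control, with no test possible and no depth known. K8-Cre recombines in luminal cells, so Cxcl12 in these basal cells does not check the deletion: it had 350 FPKM in the library labelled knockout against 270 FPKM in the control. Of the sterol enzymes that reached 10 FPKM, the 7 matched by symbol had a log2 ratio above 0, with a median of 0.48. Msmo1, listed as Sc4mol and not among the 7, went the other way, with 11.3 FPKM in the knockout against 19.9 FPKM in the control. Among all 6599 genes of that level 47.3% were above 0. Sterol enzymes under 10 FPKM were mixed: Lss, Dhcr7, Mvd and Ebp had a ratio above 0, and Pmvk, Mvk, Nsdhl and Hsd17b7 below 0. Fdps, which makes farnesyl diphosphate, had 18.7 FPKM in the P4 knockout and 9.01 FPKM in the P4 control. This was the largest ratio among the 17 members that reached 10 FPKM (log2 0.98 with a prior of 1 FPKM). Its control value is under 10 FPKM, so it entered only through the knockout. Fdps overlaps Gm43738 on the same strand, so that reads could be split between them. Hmgcs1 had 41.3 FPKM in the knockout and 37.3 FPKM in the control, and Sqle 39.7 and 33.4 FPKM in the same order.

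Of the regulators, Srebf1 had 28.6 FPKM in the P4 knockout and 17.3 FPKM in the P4 control, and Srebf2 47.9 and 41.0 FPKM in the same order. Insig1 (14.8 against 16.1 FPKM) and Scap (18.2 against 24.7 FPKM) were lower in the knockout. In the fatty acid group 1 of 5 was above 0, with Fasn at 34.4 against 39.0 FPKM, Scd1 at 24.1 against 25.2 FPKM and Scd2 at 26.9 against 32.3 FPKM.

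With a prior of 1 FPKM no member reached 2-fold in either direction among the 17 with 10 FPKM or more, and with a prior of 0.1 FPKM Fdps was 2-fold higher, against 5.33% of genes lower and 7.99% higher at the prior of 1 FPKM. The member median was 0.16, against -0.04 for all genes. Of the other 12 members, Fdft1 and Tm7sf2 were listed at 0 in both libraries, Lss had 6.55 FPKM in the knockout and 1.41 FPKM in the control, and Hsd17b7 6.15 and 6.70 FPKM in the same order. Among 17 other SREBP-linked genes 3 were 2-fold higher in the knockout, Mid1ip1 (log2 1.80), Tmem97 (1.08) and Gpam (1.06), and none was lower. Of 13 LXR-linked genes 1 was higher, Cd36 (1.92), and 2 were lower, Apoc1 (-3.64) and Arl4c (-1.32). Of 19 AKT and mTORC1 genes 1 was lower, Rheb (-1.36), and of 13 processing genes none changed 2-fold. The 15 adipocyte markers summed to 64.3 FPKM in the P4 knockout against 37.7 FPKM in the P4 control, with Fabp4 at 25.6 and 6.79 FPKM and Adipoq at 0 in both. The 18 macrophage markers found summed to 82.5 FPKM against 58.1 FPKM, with Fcgr1 at 0 in the knockout. Of 11 genes of the integrated stress response 10 were above 0, with a median log2 ratio of 0.45. The 11 fibroblast markers summed to 726 FPKM in the knockout against 512 FPKM in the control, with none at 0. Of the 10 that reached 10 FPKM, 9 were above 0 and 3 were 2-fold higher, Col1a1, Lum and Mfap5, with a median of 0.74. Of 20 dissociation stress genes 15 were above 0, with a median of 0.35. The part of such cells and of stress in the sterol enzyme values was not tested.

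**Figure D5:**
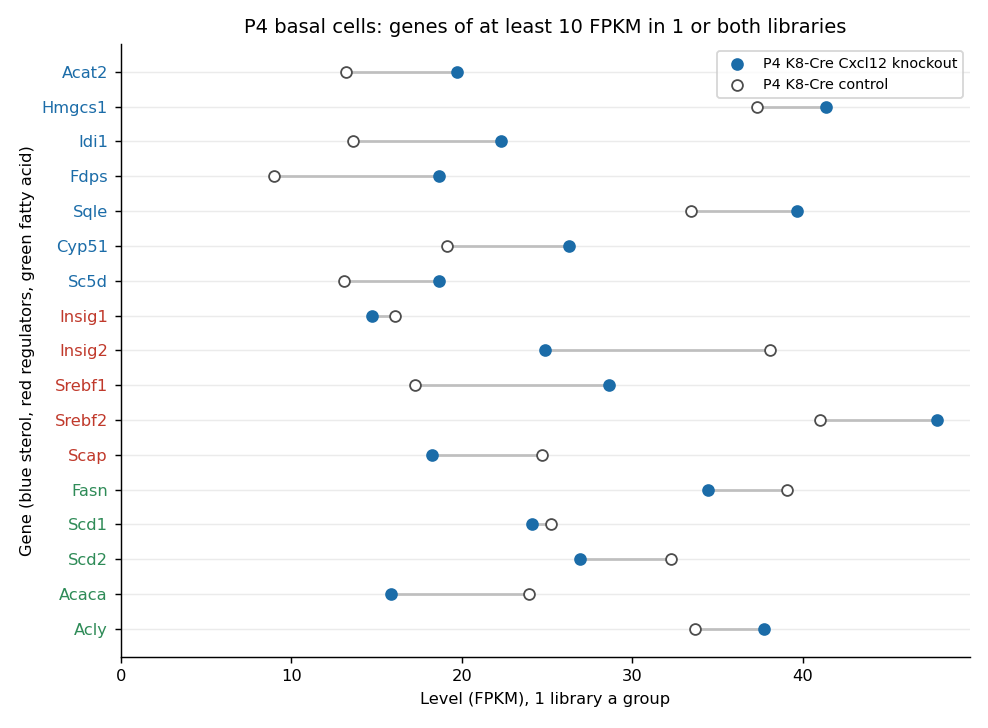
Levels in FPKM of the 17 members with 10 FPKM or more in P4 basal cells, with the Cxcl12 knockout as filled and the control as open points, 1 library each. The 7 sterol enzymes shown (blue) have the filled point on the right, Sc4mol (Msmo1), at 11.3 FPKM in the knockout and 19.9 FPKM in the control, is not drawn, and Fdps is farthest apart at 18.7 and 9.01 FPKM.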

How the data were processed

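RNA of 17 mouse mammary libraries in 12 groups was analysed. Per the submitters' processing notes, STAR 2.7.8a and Partek were used and hg38, a human build, was named; symbols and coordinates are mouse. Counting settings are not given in the sources used here. The deposited macrophage values are log2(CPM + 0.0001), as read from the values: 75.2% to 90.0% of values up to 50 reads were whole reads within 0.05, so the tables hold no counts and limma replaced the count test that had been planned. The deposited P4 values are FPKM by the authors, of unknown depth.

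CPM was recovered and log2(CPM + 1) fitted with limma 3.58.1 (R 4.3.3; group means, trend), keeping genes that reached 1 CPM in 2 or more libraries, two-sided p adjusted by Benjamini-Hochberg over all genes and passing under 0.05. The pseudocount understates changes of low genes. Prior degrees of freedom were 97.3 beside 4 residual (knockouts) and infinite beside 1 (sort). Culture and P4 ratios used a prior of 0.107 CPM (2 reads in a library of mean depth) or of 1 FPKM, and genes of 10 or more in the highest library. Intervals of ratios are exact conditional Poisson. Lengths are GENCODE M21 exon unions. Start positions equalled M21 in 99.5% of genes in the knockout and sort tables and 2.15% in culture, where genes were matched by symbol. Values per exon length in culture still used M21 lengths, and whether these apply there is not known. The lowest Srebf2 over Srebf1 ratio, 1.01, is such a value. The fit was checked on simulated data, where the knockout contrast missed most changed genes, so a member that did not pass may still differ. Of entries sharing a symbol the highest was kept. No deposited column was left unmapped.

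Members, lists and tests were chosen with earlier results of these data known. Values were given in every library for members that passed limma, and for Srebf1, Srebf2, Insig1, Scap, Hmgcs1, Sqle, Fasn, Scd1 and Scd2. Members 2-fold in both inhibitor pairs had levels given in each culture library, but elsewhere only in part or not at all. The other members named with values were chosen after their values were seen. Of pathway lists, up to 2 genes per direction were named. The result of 1 pathway list in the sort is not reported here.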

Additional observations from a re-analysis of the deposited data

Results flagged for a closer look

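In culture, 3 members were at least 2-fold changed in opposite directions by the same agent, depending on whether the other agent was present. With 1 library a treatment, these differences were not tested. Acat2 had a log2 ratio for the AKT inhibitor of -3.70 with CXCL12 and 1.10 without it. Scap had 1.84 with CXCL12 and -1.75 without it, and its log2 ratio for CXCL12 was 1.92 with the inhibitor and -1.68 without it, which is the same contrast of the 4 libraries seen from the other side. Scd2 had a log2 ratio for CXCL12 of 1.08 with the inhibitor and -1.35 without it. Of all genes of that level, 12.8% moved in opposite directions with the inhibitor and 10.3% with CXCL12.

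In the knockout experiments, 2 members had both Cxcr4 knockout libraries below their controls and both Cxcl12 knockout libraries above theirs. Sqle changed by -3.31 (Cxcr4 loss) and 1.26 (Cxcl12 loss) on the log2 scale, and Sc5d by -1.07 and 0.69. The difference itself did not pass in limma for Sqle (-4.57, SE 2.10, adjusted p = 1) or Sc5d (-1.76, SE 1.40, adjusted p = 1).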

How the results depend on the processing

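Of 328 recomputed values over 45 results, 299 counted as the same, 24 moved, 4 no longer passed and 1 reversed. A count was the same within 1.5-fold. A median or culture ratio was the same within the SD of member medians between replicates (0.41, or 0.10 for the sort median). A single member's tested limma change was the same if it kept its direction and side of the threshold. Direction was not required of medians: that of Cxcr4 loss, -0.03, was 0.36 without the first Cxcr4 knockout library and counted as the same. In the sort, members that passed numbered 0 without the filter on low values and 0 without the trend, against 2, and genes that passed numbered 0 in both cases, against 1219; the member median of -0.13 was 0.0192 with median-ratio scaling and 0.0751 with quantile normalization. In culture, 2 of 29 members were higher in both inhibitor pairs without the filter (4.30% of all genes). With a prior of 1 CPM, 2 of 22 were lower (7.22%), against 3, as Hsd17b7 was then at -0.80 in 1 pair. For CXCL12, 5 of 22 were lower (11.4%) and 3 higher (7.91%) at 1.5-fold, and 5 of 29 lower without the filter (7.42%). In P4 cells 1 of 17 members was lower (15.0% of all genes) and 3 higher (16.7%) at 1.5-fold. With a prior of 0.1 FPKM 1 of 17 was higher (8.97%), and without the filter 2 of 27 (10.6%). Leaving out 1 library at a time, member medians ran from -0.55 to 0.36 (Cxcr4 loss), 0.25 to 0.57 (Cxcl12 loss), -0.96 to -0.0164 (their difference) and -0.0744 to 0.00699 (sort, values with no test), with 0 members passing in each knockout contrast. Single members ran from -4.33 to 0.18 (Scd2) and -4.61 to -2.01 (Sqle) with Cxcr4 loss; in the sort Insig1 ran from 1.04 to 1.68 and Scd2 from -1.97 to -1.36. Without the libraries LysM-Cre control 1 and K8-Cre control 1, chosen after seeing the data for their genes at 0, 0 members passed. Without the filter 8 genes passed with Cxcr4 loss, and with voom weights 7 with Cxcl12 loss.

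Same-numbered repeats deviated together with correlations of 0.0573 to 0.139 between groups over all genes tested, and the main fit did not take the number as a pairing. These low correlations do not show that repeats lack a shared effect. The share of small noncoding RNA was 2.96% to 6.74% in all libraries of repeat 1 and 15.2% to 19.3% in all of repeat 2. With the replicate block 0 members passed in each contrast and 1 gene passed in each. The causes of these shifts were not tested. At 8.60 to 37.2 M reads some low members rest on a few reads, and groups of 1 or 2 libraries limit every comparison.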
